A study of Mus musculus with 28 samples.

Results

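The Ifi200 genes and Aim2 are the mouse PYHIN family, intracellular proteins that sense DNA, and their mRNA levels were followed in retinal microglia before and after an injection of lipopolysaccharide (LPS). Members were taken by symbol: of 9 listed genes (Ifi203, Ifi204, Ifi205, Ifi207, Ifi209, Ifi211, Ifi213, Mndal and Aim2), 8 were held by the table of 40021 genes, and all 8 were among the 13164 genes tested. Ifi211 was not held under that symbol. RefSeq lists Mnda as another name of Ifi211 and the table holds a line called Mnda, which is described here beside the members together with the other PYHIN genes of the table (Ifi202b, Ifi206, Ifi214, Pydc3, a RefSeq synonym of Ifi208, and the pseudogene Ifi203-ps). Of those 6 further genes, 4 were tested.

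The cells came from single retinas of male heterozygous Cx3cr1CreER:R26-tdTomato mice on a C57BL/6 background, in which Cre recombinase is made under the control of the fractalkine receptor gene and tamoxifen, given as eye drops, switches on the red reporter tdTomato. Live tdTomato-hi DRAQ7- cells were sorted, DRAQ7 being a dye that enters dead cells. Endotoxin-induced uveitis (EIU) was set off by LPS injected into the vitreous. The 28 retinas, of left and right eyes, comprised 10 without LPS (naïve), 6 taken 4 h after it, 5 after 18 h and 7 after 2 weeks, in 2 experiments. Experiment 1 gave 6, 3, 4 and 4 of them and experiment 2 gave 4, 3, 1 and 3. The naïve group had the same genotype and sort but no LPS, and no group was injected without LPS. Effects of the injection itself therefore cannot be told apart from those of LPS. The labels do not say which retinas came from the same mouse, so p-values measure the spread between retinas, some of which may share an animal.

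PYHIN proteins join a pyrin domain, which binds other pyrin domains, to a HIN-200 domain, which binds DNA. AIM2 recruits the adaptor ASC (gene Pycard) and caspase-1 onto cytosolic DNA and so builds an inflammasome that matures interleukin-1 beta, whereas p204, the product of Ifi204 and usually set beside human IFI16, has been tied to the STING pathway of type I interferon. Most genes of the family are known to be induced by interferon in macrophages, and p205 has been described there as a regulator of Pycard transcription. The protein of Ifi202b has HIN domains without a pyrin domain.

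The family lies in 1 cluster on chromosome 1. In the mm10 build (GRCm38, GENCODE M21) the 14 PYHIN genes annotated span chr1:173350879-174031810, 680.9 kb, with 11 on the minus and 3 on the plus strand. Aim2 stands at one end (chr1:173350879-173466040, plus strand) and Ifi205 at the other (chr1:174011998-174031810, minus strand), with Ifi207 between them (chr1:173723427-173741747, minus strand). The genes are related by duplication, and reads can match several of them. Of the 75-base windows of the annotated transcripts, none of those of Aim2 occurred in another gene, against 2.8% for Ifi207, 5.71% for Ifi203, 8.07% for Ifi213, 11.1% for Mndal, 13.2% for Ifi204, 16.6% for Ifi205 and 23.1% for Ifi209. For Ifi211 it was 63.6%, of which most were shared with Ifi205 (40.6% of its windows) or Ifi204 (23%). The authors divided such reads between transcripts by expectation-maximisation, so Mnda is the least certain line of the family, and values of Aim2 and Ifi207 depend least on that step.

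The promoters are shown because the family shares a stretch there that holds the core of the interferon-stimulated response element. RefSeq promoter sequences (GRCm38.p6, 250 bases before to 50 after the annotated start) were found for 8 of the 9 listed members. In the stretches that follow, capitals mark the 9 bases of the core, written GAAANNGAA and searched on both strands, or, for Ifi209 and Aim2, the upstream 9 bases closest to the commonest core of the family.
Ifi205 (chr1:174031861-174031909, minus strand): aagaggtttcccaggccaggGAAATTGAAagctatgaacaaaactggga
Ifi211 (chr1:173913055-173913103, minus strand): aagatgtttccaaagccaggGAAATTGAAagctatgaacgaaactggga
Ifi207 (chr1:173741822-173741870, minus strand): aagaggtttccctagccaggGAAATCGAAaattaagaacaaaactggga
Ifi203 (chr1:173942499-173942547, minus strand): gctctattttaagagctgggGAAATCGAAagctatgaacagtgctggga
Mndal (chr1:173880195-173880243, minus strand): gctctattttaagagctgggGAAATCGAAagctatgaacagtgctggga
Ifi213 (chr1:173599317-173599365, minus strand): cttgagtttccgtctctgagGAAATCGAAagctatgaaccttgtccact
Ifi209 (chr1:173630760-173630808, plus strand): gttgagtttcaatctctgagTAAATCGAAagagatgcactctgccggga
Aim2 (chr1:173420459-173420507, plus strand): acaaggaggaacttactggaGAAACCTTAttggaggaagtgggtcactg

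The core was present in at least 1 promoter of 6 of the 8 members with a promoter sequence (Ifi203, Ifi205, Ifi207, Ifi211, Ifi213 and Mndal). It was also present in 3 of 4 further PYHIN genes (Ifi206, Ifi208 and Ifi214, not Ifi202b). Of all promoters in the table, 8.56% held it. The counts are of genes and the share is of promoters, of which the 8 members have 10. Another annotated start of Ifi203 had no match. In 7 genes the upstream core reads gaaatcgaa. Ifi205 and Ifi211 carry C6T, counted from 1 at its 5′ end. The closest stretch of Ifi209 differs by G1T and so has no match, and that of Aim2 differs at 3 positions (T5C, G7T and A8T). The upstream cores end between -126 and -27 relative to the start, at -33 in Ifi207, -29 in Ifi211 and -126 in Ifi205, which has a further match on the other strand from 25 to 33. A second annotated start of Mndal has a match on the other strand from -53 to -45. A gamma-activated site (TTCNNNGAA) was found in none of the 8, against 8.3% of all promoters, and a kappa B site (GGGNNTTCC) in none, against 5.82%. As the sequences are copies of one another, the matches are not independent of each other, and they describe letters, not binding.

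The number of alignments per retina lay between 7510000 and 19700000. The number of genes at 1 RPKM or more (a read number scaled to transcript length and library size) was between 6552 and 11825 and was lowest in naïve retinas 3 and 4, 18 h retina 4 and 2 week retina 1. Experiment 1 had fewer such genes than experiment 2 in naïve retinas (medians 8349.5 and 11319.5). The 12 microglial markers checked were all above 1 RPKM in some retina of every group, with sums in RPKM of 8439 to 15740 without LPS, 2321 to 9146 by 4 h, 4206 to 8954 by 18 h and 9075 to 17040 by 2 weeks. Of the neutrophil markers 9 of 10 were held, and they summed to no more than 0.137 RPKM without LPS, 0.125 by 4 h, 17.0 by 18 h and 0.342 by 2 weeks, with 9 of 9 under 1 RPKM in all retinas of the other groups and 5 of 9 at 18 h. The 10 monocyte and macrophage markers summed to 12.3 to 201 RPKM without LPS, 16.5 to 66.6 by 4 h, 35.7 to 74.7 by 18 h and 4.75 to 190 by 2 weeks. Lymphocyte markers, 10 of 10 held, summed to 20.2 to 81.3, 6.62 to 18.3, 41.0 to 137 and 23.2 to 57.0 RPKM in that order. Most of the lymphocyte sum in naïve retinas was Cd79b, which microglia also express. Nkg7, a marker of cytotoxic lymphocytes, was at 0 throughout the naïve group but reached 5.77 to 86.4 RPKM by 18 h. Within the monocyte and macrophage list the median of Plac8 was 0.108 RPKM without LPS and 6.63 by 18 h, while those of Mrc1 (16.4 and 1.61), F13a1 (5.69 and 0.328) and Cd163 (3.34 and 0) were lower by 18 h. The median of Ms4a7 was 39.7 and 43.2, and Chil3 was at 0 in all naïve retinas. Their part in the results that follow was not tested, and in bulk RNA a change in the make-up of the sort and a change of RNA per cell cannot be told apart.

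In naïve microglia the family was expressed unevenly. By median RPKM the order was Ifi209 (22.8), Ifi204 (16.3), Aim2 (8.04), Ifi207 (6.49), Mndal (3.72), Ifi213 (3.55) and Ifi203 (0.744), and Ifi205 was under 1 RPKM in 9 of 10 retinas. Neighbours in this order overlapped widely: Ifi209 spanned 2.86 to 32.2 RPKM and Ifi204 1.3 to 69.6. Of the 224 member values (8 genes in 28 retinas), 12 were listed at 0 and 9 more lay above 0 but under 0.001 RPKM. Zeros fell in naïve retinas (10) and at 2 weeks (2), none of the naïve ones in experiment 2, and there were none at 4 h or 18 h. At 4 h the order by median was Ifi207 (73.9), Ifi204 (39.5), Ifi209 (22.4), Ifi205 (16.8), Aim2 (8.36), Ifi203 (4.49), Ifi213 (4.14) and Mndal (3.70). Ifi207 thus had the highest median of the 8 at 4 h and Ifi205 moved from the lowest to the fourth, while Aim2 kept nearly the same value.

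**Figure D1:**
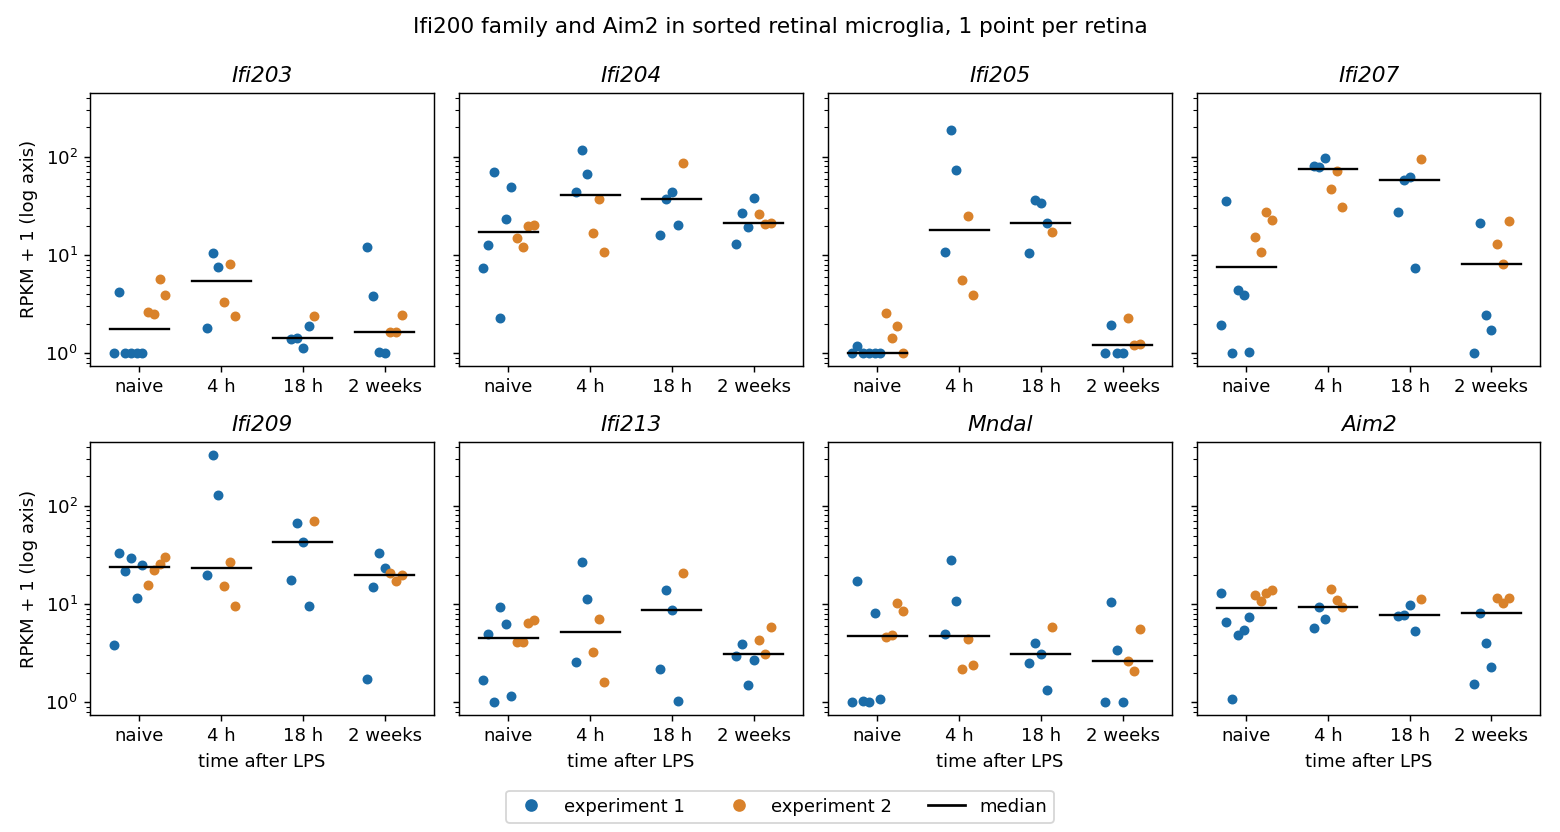
RPKM + 1 of the 8 members (log axis) in each retina by group, coloured by experiment, with the group median as a bar. All 4 h and 18 h retinas lie above all naïve retinas for Ifi205, and 5 of 6 and 3 of 5 do so for Ifi207, while the groups overlap for the other members.

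At 4 h, Ifi205 and Ifi207 rose among the 8 members and none fell. A gene was called where its change was at least 2-fold and its adjusted p no more than 0.05 in a limma fit of log2(RPKM + 1) over all genes, by which 3.68% of the 13164 genes were higher and 4.39% lower at 4 h. The count of 2 of 8 is set against the first of these shares. All 8 differences were above 0, from 0.32 to 4.08 with a median of 1.09 on the log2 scale, where the median of all genes was -0.11 and 43.3% of genes were above 0. Of the 4 other PYHIN genes tested, Mnda and Ifi214 were called higher over all retinas and in experiment 1 alone, and neither was called in experiment 2 alone.

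Ifi205 encodes p205. Its level in naïve retinas was between 0 and 1.55 RPKM. It was under 1 RPKM in 9 of 10 naïve and 6 of 7 2 week retinas. It therefore met the filter for testing, 1 RPKM in at least 5 retinas, only through the 4 h and 18 h groups. At 4 h it was between 2.92 and 187 RPKM with a median of 16.8, and each of the 6 retinas was above all 10 naïve ones. The rise was 4.08 on the log2 scale (SE 0.55, adjusted p = 2.67e-06). This understates the ratio of levels, because 1 was added to values of which most were below 1. The 3 retinas of experiment 1 had 9.87, 187 and 73.0 RPKM and the 3 of experiment 2 had 4.56, 23.7 and 2.92. Within experiment 1 alone the rise was 5.70 (SE 0.69, adjusted p = 2.67e-05) and within experiment 2 alone 2.34 (SE 0.57, adjusted p = 0.0172). In untransformed RPKM, where retina 2 with its 187 RPKM weighs most, Ifi205 was not called (adjusted p = 0.0866).

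Ifi207 encodes another PYHIN protein with a pyrin and a HIN domain. Naïve retinas ranged from 0 to 34.2 RPKM around a median of 6.49, and 4 h retinas from 30.2 to 96.3 around 73.9. The highest naïve retina, number 2, overlapped with 1 retina at 4 h, and the other 5 were above all naïve ones. The rise was 3.29 on the log2 scale (SE 0.77, adjusted p = 0.00442). It was 4.70 in experiment 1 (SE 1.04, adjusted p = 0.0106) and 1.39 in experiment 2 (SE 0.42, adjusted p = 0.0422), so that both experiments gave a call. Naïve retinas of experiment 2 had 14.4, 9.62, 26.6 and 21.7 RPKM, whereas the median of the 6 in experiment 1 was 1.91.

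Mnda is named after the myeloid nuclear differentiation antigen. Its line had 0 to 19.8 RPKM in naïve retinas and 12.5 to 364 at 4 h, with 5 of 6 retinas above all naïve ones, and a log2 difference of 3.78 (SE 0.86, adjusted p = 0.00314). Within experiment 1 it was 5.87 (SE 1.16, adjusted p = 0.00446) and within experiment 2 it was 1.13 (SE 0.56, adjusted p = 0.196). Reads shared with Ifi205 and Ifi204 limit what this value says about Mnda. Ifi214 was low throughout, at most 1.19 RPKM in naïve retinas and 0.211 to 5.67 at 4 h (log2 difference 1.08, SE 0.30, adjusted p = 0.0203). It was under 1 RPKM in 9 of 10 naïve and 7 of 7 2 week retinas, so it too met the filter only through the 4 h and 18 h groups. Its difference was 2.01 within experiment 1 (SE 0.39, adjusted p = 0.00394) and 0.04 within experiment 2 (SE 0.27, adjusted p = 0.932). Without the 4 retinas with the fewest genes it was 0.98 (adjusted p = 0.0425), under the 2-fold minimum, and the call was lost. Ifi206 (log2 difference 1.72, adjusted p = 0.0644) and Pydc3 (1.32, adjusted p = 0.0525) were just outside the threshold, with levels of 1.89 to 21.2 and 0.0852 to 12.4 RPKM at 4 h. Ifi202b and Ifi203-ps were not tested: Ifi202b never exceeded 0.111 RPKM and was listed at 0 in all 4 h and 18 h retinas, and Ifi203-ps reached 3.37 RPKM in 1 retina at 4 h.

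**Figure D2:**
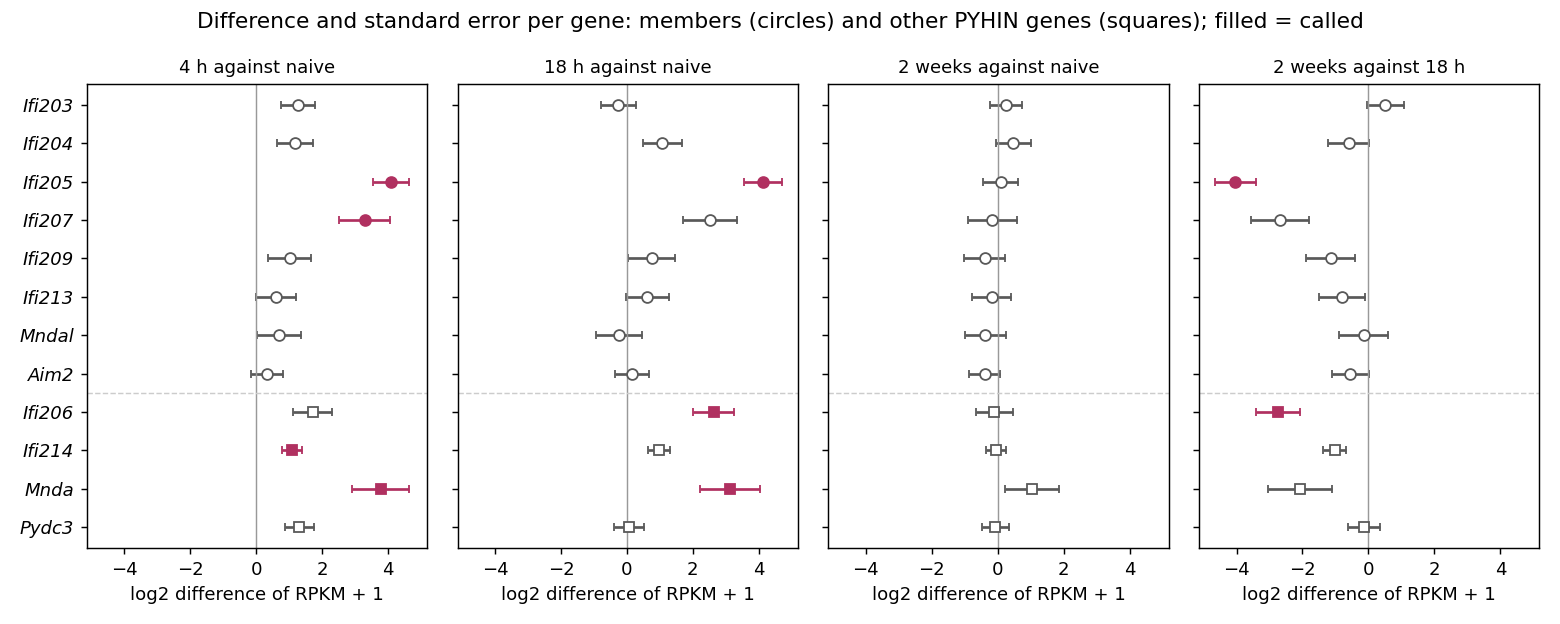
Log2 difference of RPKM + 1 with its standard error (horizontal bars) for the 8 members (circles) and 4 other PYHIN genes (squares) in 4 comparisons, with called genes filled. Ifi205 is called at 4 h, at 18 h and, in the other direction, between 18 h and 2 weeks. No gene shown is called at 2 weeks against naïve.

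At 18 h, when infiltrating leukocytes are at their peak in this model, 1 of the 8 members was called higher and none lower, against 2.84% and 1.85% of all genes. Ifi205 had 9.47, 35.5, 33.1 and 20.1 RPKM in the 4 retinas of experiment 1 and 16.2 in the retina of experiment 2, all 5 above all naïve retinas (log2 difference 4.14, SE 0.58, adjusted p = 1.73e-05). It was 4.48 within experiment 1 (SE 0.63, adjusted p = 0.000435) and 3.41 for the 1 retina of experiment 2. It was not called at 18 h in untransformed RPKM (adjusted p = 0.561). Between 4 h and 18 h it differed by 0.06 (SE 0.64, adjusted p = 0.986), well within the spread of either group. None of the 8 members was called between these times, against 2.92% of genes higher and 2.51% lower at 18 h. By unadjusted p under 0.05 in the limma fit there was 1 of the 8 members (Ifi203), beside 2147 of the 13164 genes. An ordinary linear model of untransformed RPKM called 0 members.

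Ifi207 had 26.2, 57.4, 61.2 and 6.43 RPKM at 18 h in experiment 1 and 94.2 in experiment 2. Of these, 3 were above all naïve retinas and the lowest, retina 4, was close to the naïve median. The log2 difference of 2.53 (SE 0.82) missed the threshold (adjusted p = 0.0721). Retina 4 is among the 4 with the fewest genes detected. With those 4 retinas left out, Ifi207 was called at 18 h (2.70, adjusted p = 0.0344), giving 2 of 8 members, and it was also called without naïve retina 2, without naïve retina 9, or without 18 h retina 4 alone (adjusted p = 0.0401, 0.0456 and 0.0284). Among the further genes Ifi206 had 10.9, 37.6, 31.4 and 2.08 RPKM in experiment 1 and 30.3 in experiment 2, above its naïve range of 0 to 5.92 in 4 of 5 retinas (log2 difference 2.63, SE 0.62, adjusted p = 0.00876). Mnda had 38.4, 94.6, 97.4 and 3.36 and then 138 RPKM (3.11, SE 0.91, adjusted p = 0.04), and in experiment 1 alone, with a difference of 3.83, it was not called (adjusted p = 0.075). In these 3 genes retina 4 had the lowest value of the 5, which was not the case for Ifi205.

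At 2 weeks no member was called against naïve. The shares of all genes called were 0.0076% higher and 0% lower. By limma none of the 8 members reached an unadjusted p of 0.05, beside 378 of the 13164 genes. The linear model of untransformed RPKM called 0 as well. Ifi205 was at most 1.27 RPKM in the 7 retinas, and Ifi207 was between 0 and 21.2 with a median of 7.12, so that both lay within their naïve ranges. The 8 differences from naïve were between -0.40 and 0.47, with 3 above 0. Against 18 h, 1.1% of genes were higher and 1.55% lower at 2 weeks, and Ifi205 was the member called lower (-4.04, SE 0.62, adjusted p = 8.82e-05), though not in untransformed RPKM (adjusted p = 0.623). The difference of Ifi207 was -2.69 (SE 0.88, adjusted p = 0.101), and it was called, at -3.27, with 18 h retina 4 left out (adjusted p = 0.0464). In this comparison the non-member Ifi206 passed (-2.73, SE 0.66, adjusted p = 0.0179). Mnda kept 42.4 RPKM in retina 1 and 24.9 in retina 2 of experiment 1 at 2 weeks, and 3 of 7 retinas were above all naïve ones (log2 difference 1.04, SE 0.82, adjusted p = 1).

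For Ifi205 the order of the groups was therefore naïve and 2 weeks at or near 0, with no difference detected between them, and 18 h and 4 h higher, also with none detected between them. For Ifi207 the medians ran from 6.49 in naïve and 7.12 at 2 weeks to 57.4 at 18 h and 73.9 at 4 h, and of the steps tested only that from naïve to 4 h passed.

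Ifi204, the DNA sensor tied to STING, was present at 1 RPKM or more in every retina. Its levels were 1.3 to 69.6 RPKM in naïve retinas (median 16.3), 9.85 to 117 at 4 h (39.5) and 11.9 to 37.0 at 2 weeks (20.1). The 18 h retinas had 15.1, 36.3, 43.4 and 19.3 RPKM in experiment 1 and 85.3 in experiment 2. The differences from naïve were 1.17 at 4 h (SE 0.55, adjusted p = 0.219) and 1.08 at 18 h (SE 0.58, adjusted p = 0.349), with 1 retina at each time above all naïve ones. Naïve retinas 3 and 6, at 69.6 and 48.5 RPKM, were as high as most retinas after LPS.

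Ifi209, also known as Pyhin1, had the highest naïve median of the members, although Ifi204 had the higher maximum, and had the widest range in RPKM at 4 h. The 3 retinas of experiment 1 had 18.9, 332 and 128 RPKM at 4 h and those of experiment 2 had 14.4, 25.8 and 8.50, beside 2.86 to 32.2 in naïve retinas. At 18 h it had 16.6, 65.9, 41.8 and 8.54 RPKM in experiment 1 and 70.0 in experiment 2. The differences were 1.02 at 4 h (SE 0.66, adjusted p = 0.413) and 0.75 at 18 h (SE 0.70, adjusted p = 0.639). The value of 332 RPKM in retina 2 was the highest of any member in any retina.

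Ifi213, Mndal and Ifi203, whose functions are less well described, stayed at lower levels. Ifi213 had 0.0172 to 8.24 RPKM in naïve retinas and 0.619 to 26.1 at 4 h (log2 difference 0.60, SE 0.62, adjusted p = 0.643). Mndal had 0 to 16.0 and 1.19 to 27.2 RPKM (0.70, SE 0.66, adjusted p = 0.606). For both, the medians of the 2 groups were close and the upper end at 4 h came from retina 2. Ifi203 was listed at 0 in 5 of 6 naïve retinas of experiment 1 and was between 1.49 and 4.68 RPKM in those of experiment 2. At 4 h it had 0.788 to 9.42 RPKM (1.27, SE 0.50, adjusted p = 0.127), and at 18 h 0.382, 0.423, 0.132 and 0.890 RPKM in experiment 1 and 1.41 in experiment 2. The 18 h level differed from that at 4 h by -1.53 on the log2 scale (SE 0.59, adjusted p = 0.153).

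Aim2, the inflammasome sensor, had the smallest ratio of highest to lowest retina of the 8 members at 4 h and at 18 h. It was between 4.75 and 13.3 RPKM at 4 h, 4.30 and 10.2 at 18 h and 0.519 and 10.7 at 2 weeks, beside 0.0671 to 13.1 in naïve retinas. The log2 differences from naïve were 0.32 at 4 h (SE 0.48, adjusted p = 0.77), 0.15 at 18 h (SE 0.51, adjusted p = 0.92) and -0.40 at 2 weeks (SE 0.46, adjusted p = 1). Without the 4 retinas with the fewest genes the sign at 4 h turned, to -0.10 (adjusted p = 0.892).

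**Figure D3:**
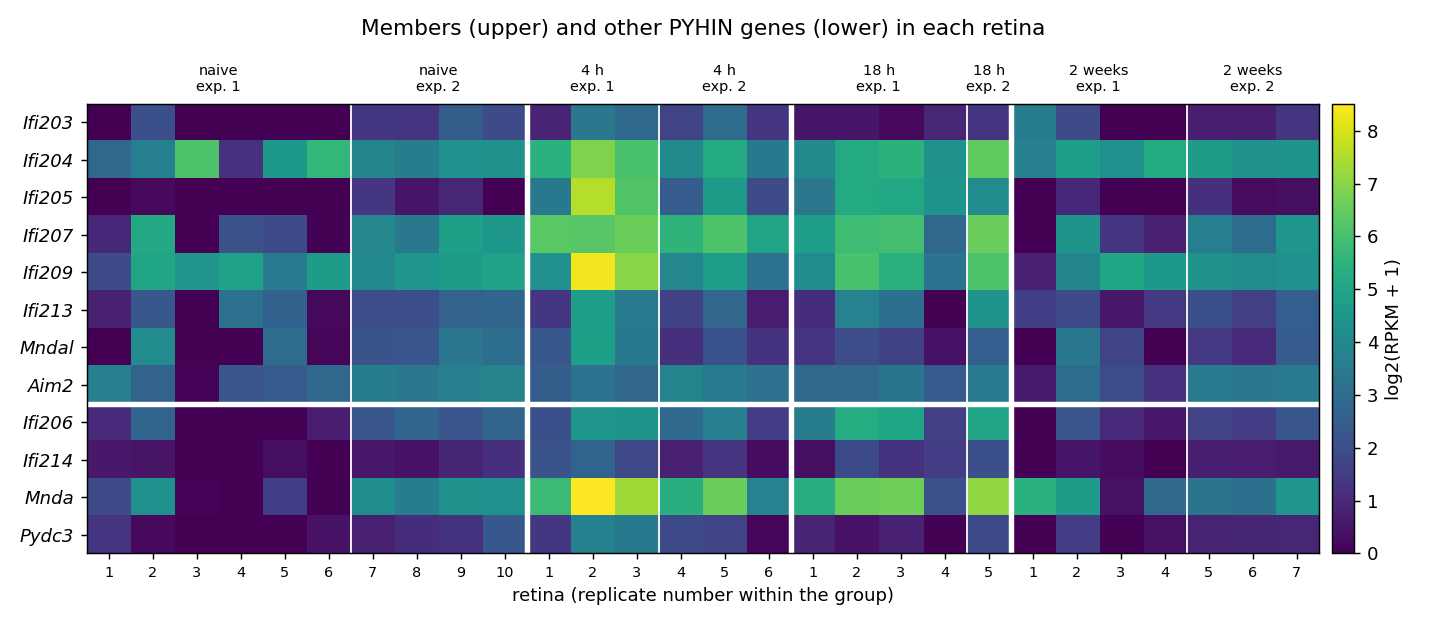
Log2(RPKM + 1) of the 8 members (upper rows) and 4 other PYHIN genes (lower rows) in each retina, in columns by group and experiment. Retinas 2 and 3 at 4 h carry the highest values of several genes, and naïve retinas of experiment 1 hold 10 of the 12 member values listed at 0.

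The 2 experiments gave unlike median differences at 4 h, although no member was called for a difference between them. In experiment 1 each of the 8 members had a higher 4 h level, with a median difference from naïve of 2.22 on the log2 scale. The median of all genes was -0.05 there. In experiment 2, 4 of 8 were higher and the median was 0.04, where that of all genes was -0.26. Ifi209 (-0.53, adjusted p = 0.31), Ifi213 (-0.65, adjusted p = 0.356), Mndal (-1.22, adjusted p = 0.0708) and Aim2 (-0.13, adjusted p = 0.724) were on the other side of 0 there. Ifi205 and Ifi207 were called in each experiment, and no other member in either. The difference between the experiments, tested as an interaction, was negative for all 8 members, from -3.52 in Mndal to -0.65 in Aim2 with a median of -2.67, where the median of all genes was -0.19. None was called by limma, against 0.0076% of genes higher and 0.0912% lower. Of the 8 members 4 had an unadjusted p under 0.05 (Ifi205, Ifi207, Ifi209 and Mndal), beside 620 of the 13164 genes. Ifi205 had the smallest adjusted p among the members, 0.319, and it was called with 4 h retina 1 left out (-4.51, adjusted p = 0.00919). By group medians, 7 of 8 members were higher in experiment 2 without LPS, and 7 of 8 were higher in experiment 1 at 4 h. The same counts were not taken over all genes, so they are not results about the members. Naïve retinas of experiment 1 also had fewer genes at 1 RPKM or more than those of experiment 2 (medians 8349.5 and 11319.5). Sums of the markers of other retinal cells and of red blood cells are given by experiment, with no test. The 8 rod markers summed to 256 to 4460 RPKM in naïve retinas of experiment 1 (256 to 341 in retinas 3 to 6) and 1919 to 4201 in those of experiment 2, the 6 Müller glia markers to 273 to 4961 and 1896 to 4582, and the 5 erythrocyte markers to 0 to 27.9 and 28.3 to 43.5, with 4 naïve retinas of experiment 1 at 0. At 4 h the rod sums were 380 to 3084 in experiment 1 and 1905 to 3562 in experiment 2, and the erythrocyte sums 13.9 to 25.4 and 29.4 to 735. Their part in the difference between the experiments was not tested. Of the 6 retinas at 4 h, retina 2 was the highest for 6 of 8 members. At 2 weeks the same contrast gave no call, with 0% of genes higher and 0% lower. Of the 8 members 1 had an unadjusted p under 0.05 there (Ifi203, -1.92), beside 383 of the 13164 genes. A difference between the experiments was not tested at 18 h, where experiment 2 has 1 retina. That retina was the highest of the 5 for 7 of 8 members, all but Ifi205. It had the most genes at 1 RPKM or more of its group (10220), and 4 h retina 2 had the fewest of its group (8254). How often either retina was the highest over all genes was not counted, so neither count is a trait of the family.

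**Figure D4:**
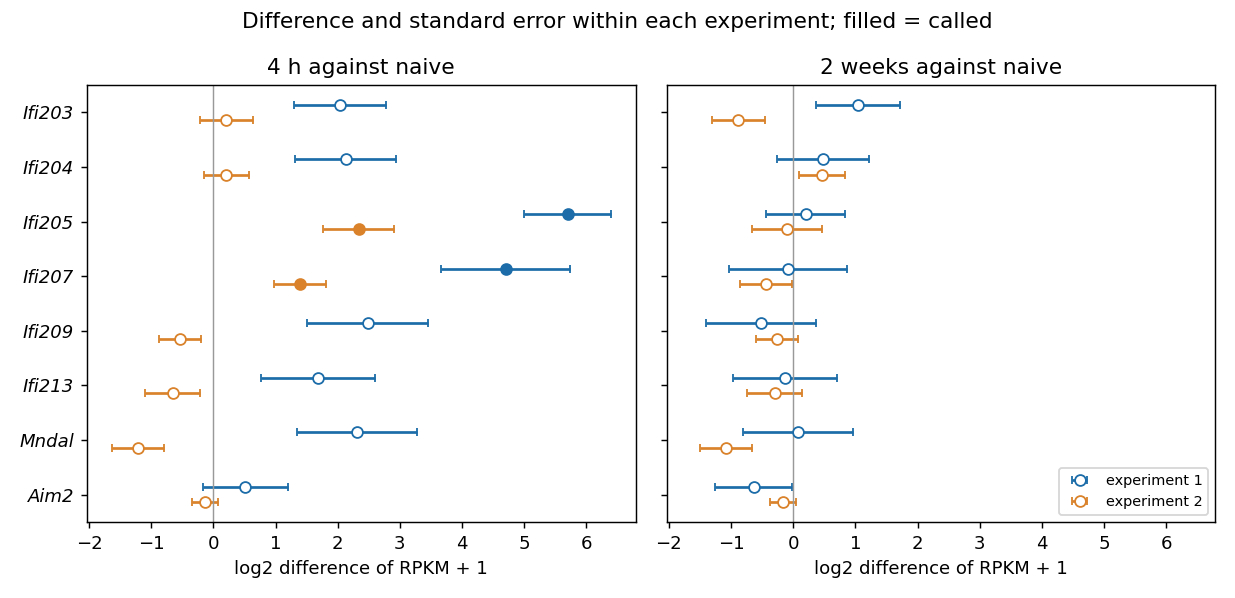
Log2 difference of RPKM + 1 from naïve, with its standard error, for each member within experiment 1 (blue) and experiment 2 (orange) at 4 h (left) and 2 weeks (right), filled where called. At 4 h every member lies further right in experiment 1, and Ifi205 and Ifi207 are filled in both.

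The other genes of DNA sensing and of the inflammasome moved in both directions. Of a list of 30 genes, 28 were tested. At 4 h, 6 were called higher (Ikbke, Trex1, Casp4, Nlrp3, Il1b and Il1rn) and 1 lower (Pycard), and the median was 0.13 where that of all genes was -0.11. Of all genes, 3.68% were called higher and 4.39% lower. Il1b, the cytokine precursor that the inflammasome matures, rose by 8.91 on the log2 scale (SE 0.65, adjusted p = 1.17e-11), Il1rn, the receptor antagonist, by 6.22 (SE 0.60, adjusted p = 5.69e-09) and Trex1, the cytosolic DNA exonuclease, by 3.35 (SE 0.81, adjusted p = 0.00588). Pycard, the adaptor of AIM2, fell by 1.94 (SE 0.36, adjusted p = 0.00029) and was higher at 18 h than at 4 h by 3.16 (SE 0.42, adjusted p = 4.36e-06). At 18 h, 5 were called higher (Zbp1, Ikbke, Irf7, Il1b and Il1rn) and 0 lower, with a median of 0.35. Of all genes, 2.84% were called higher and 1.85% lower at 18 h, with a median of -0.08. Il1rn was higher by 4.71 (SE 0.64, adjusted p = 9.92e-06), Zbp1, a sensor of Z-form nucleic acid, by 3.07 (SE 0.54, adjusted p = 0.000471) and Irf7, a transcription factor of the interferon response, by 3.05 (SE 0.69, adjusted p = 0.00596). At 2 weeks none of the 28 was called.

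Interferon-stimulated genes, of which 29 of 30 listed were tested, had larger median differences than the DNA-sensing list. At 4 h 12 were called higher and 0 lower with a median of 1.56, and at 18 h 10 and 0 with a median of 1.84, beside 1.09 and 0.69 for the 8 members at these times. Of all genes, 3.68% were called higher at 4 h and 2.84% at 18 h, with medians of -0.11 and -0.08. Ifit1, which binds viral RNA, rose by 5.91 at 4 h (SE 0.72, adjusted p = 3.96e-07) and 4.21 at 18 h (SE 0.76, adjusted p = 0.000537). Gbp2, a guanylate-binding protein, rose by 4.90 and 3.61, and Isg15, a ubiquitin-like modifier, by 4.88 and 3.55. None of the 29 was called at 2 weeks, and 8 were called lower at 2 weeks than at 18 h, against 1.55% of all genes. The difference between the experiments at 4 h had a median of -2.45 over the 29 genes, beside -2.67 over the members, and 1 of them was called (Ifit1, -5.40, SE 1.03, adjusted p = 0.0267).

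Likeness to the family was measured as the root-mean-square difference between standardised profiles over the 28 retinas, on log2(RPKM + 1), where 0 is an identical profile. The genes nearest to the mean of the 8 members were Iigp1 (0.415), Ifi206 (0.522), Slfn5 (0.541), Gm20689 (0.544) and Ifit3 (0.545), and the median over all genes was 1.35. Iigp1 is an interferon-inducible GTPase, and it was also the nearest gene to Ifi213 (0.665) and Mndal (0.628). Ifi205 was nearest to Car13 (0.275), a carbonic anhydrase gene, Ifi207 to Ifit1 (0.494) and Ifi209 to Rnf213 (0.522). Ifi204 was nearest to Nampt (0.620), Ifi203 to Mob1b (0.697) and Aim2 to Timm44 (0.408), none of which is in the lists above. Retinas share group, experiment and depth, so these values are descriptions. Among the 8 members the closest pair was Ifi205 and Ifi207 (0.729), followed by Ifi207 and Mndal (0.781). Pairs with the other PYHIN genes were not compared.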

How the data were processed

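Messenger RNA of sorted tdTomato-hi DRAQ7- microglia from 28 single retinas had been amplified with SMART-Seq v4 and made into libraries with Nextera XT. According to the methods and the submitters' processing notes, the authors used bcl2fastq 2.20, aligned the reads to mm10 with STAR 2.5.3a, assigned them to Ensembl transcripts by Partek's expectation-maximisation, and deposited RPKM values per gene and retina. Exact zeros and very small values can come from that estimation. The table also gives alignments per retina, 7510000 to 19700000, from which whole reads were not recovered. The authors' DEG tables for 4 h and 18 h, which hold their own fold changes and p-values, were not used.

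Groups, eyes and experiments were taken from the labels. Genes reaching an RPKM of 1 in 5 or more of the 28 retinas (13164 of 40021) were tested on log2(RPKM + 1) in limma 3.58.1 (R 4.3.3), with all 4 groups in 1 fit, a trended prior variance and p-values adjusted over all genes by Benjamini-Hochberg. A call needed a 2-fold change with an adjusted p no higher than 0.05. The fold minimum did not apply to differences between experiments, fitted over group-by-experiment cells. The test was checked on simulated data with known changes. These were placed only in genes above the median level and no difference between experiments was simulated, so the check does not cover genes at low levels. The members, gene lists and tests were chosen with earlier results of these data known. Named list genes are the 3 called with the largest rise and fall at 4 h and 18 h. The nearest genes are those with the smallest standardised difference. Gene positions are from GENCODE M21 and promoters from RefSeq, both of the mm10 build. Windows of 75 bases shared between annotated transcripts stood for reads that several genes can claim. Alternatives were other pseudocounts, filters, scalings, covariates, variance models, subsets of retinas and untransformed RPKM, with each retina left out in turn. Leaving out the 4 retinas with the fewest genes was added after seeing the data.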

Additional observations from a re-analysis of the deposited data

Results flagged for a closer look

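Of the 32 sets of values of 1 member in 1 group, 3 had a retina set apart from the others by Dixon's criterion on log2(RPKM + 1), where chance alone gives about 1 in 20. Each was a lowest value. Ifi209 was at 2.86 RPKM in naïve retina 1, where the next lowest of the 10 was 10.6. At 2 weeks Ifi209 was at 0.712 RPKM in retina 1, where the next lowest of the 7 was 13.8. Aim2 was at 0.0671 RPKM in naïve retina 3, where the next lowest of the 10 was 3.85. The last 2 retinas are among the 4 with the fewest genes detected, whereas naïve retina 1 had the most genes of the 28. The part of detection in these values was not tested.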

How the results depend on the processing

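The calls of Ifi205 and Ifi207 at 4 h held in every fit that left out 1 of the 28 retinas (2 of 8 members each time) and under the other settings, except that untransformed RPKM called Ifi207 and not Ifi205 (1 of 8). At 18 h the members called numbered 1, and 2, with Ifi207 added, with a pseudocount of 10, with experiment as a covariate and without the 4 retinas with the fewest genes; leaving out single retinas gave 1 to 2. Untransformed RPKM called 1 there, Ifi207 in place of Ifi205. Experiment 2 alone has 1 retina at 18 h, the highest of the 5 for 7 of 8 members, which its fit assumes to vary like the retinas of the other groups, so its counts say nothing on stability. It called 0 at 18 h against naïve, 0 at 2 weeks against 18 h and 3 at 18 h against 4 h, of which Ifi204 (2.19) and Ifi209 (2.17) had the opposite sign over all retinas, where they were not called. At 2 weeks against 18 h the same 3 settings gave 2 members, and single retinas left out gave 1 to 2. At 2 weeks against naïve and for the 2 week difference between experiments no setting called a member. For the 4 h difference between experiments single retinas left out gave 0 to 1, and the other settings 0. The labels do not say whether replicate numbers pair the retinas. Of 34 pairs with the same number in different groups, 15 had deviations correlated above 0.1, beside 93 of 253 pairs with different numbers. Within an experiment the median correlation was 0.175 for pairs with the same number and 0.0946 for pairs with different numbers. These values do not settle whether the numbers pair retinas. With the number as a replicate block, 2 members were called at 18 h and 2 at 2 weeks against 18 h, and at 4 h Ifi203 was called too (1.78, adjusted p = 0.0362). The DNA-sensing list had 7 genes called at 4 h and 5 at 18 h over all retinas. In experiment 1 alone it had 4 and 3. The interferon-stimulated list had 10 at 18 h, 6 in experiment 2 alone and 16 without the 4 retinas with the fewest genes. Of 2377 member values under alternatives, 5 lost a call, 17 gained one and 104 changed sign while not called in either fit, so that the direction of an uncalled member depends on the setting. Equal summed RPKM shifted the 4 h median over all genes from -0.11 to -0.28 and that over the members from 1.09 to 0.83. The causes of these differences were not tested. Depth is given as alignments, not reads, so no counting error could be attached to single values.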
